A study of Mus musculus with 18 samples.

Results

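The genes described here are the MHC class II genes of the mouse and their regulator. They are Cd74, H2-Aa, H2-Ab1, H2-Eb1, H2-DMa, H2-DMb1 and Ciita, 7 of the 15596 genes in the deposited table. They were chosen by name and not by a rule on their values, but with earlier results of these data known. The 16 RNA libraries came from MC38, a mouse colon adenocarcinoma line derived from C57BL/6 mice. Cultured cells labelled Mbtps1 WT (controls) and Mbtps1 KD (knockdown) gave 3 libraries each. Tumours in C57BL/6 wild-type mice, implanted with control or knockdown MC38 cells, gave 5 libraries each. The product of the targeted gene, Mbtps1, is a protease of the Golgi that activates membrane-bound transcription factors. Sample labels call the depletion a knockdown, whereas the series text calls the cultured cells knockout. The knockdown is in the implanted cells, and the host cells of a tumour carry a normal Mbtps1 gene. Neither the age of the mice nor whether the replicates came from separate cultures or animals is given in the labels used here, so the p-values measure only the spread between these samples, which may be technical.

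MHC class II molecules display peptides from the endosomes to CD4 T cells. They are made mainly by dendritic cells, macrophages and B cells, and many other cells make them after exposure to interferon gamma. The alpha and beta chains assemble in the endoplasmic reticulum with the invariant chain (Cd74), which blocks the peptide groove. Proteases then cut the invariant chain down to a fragment, and the DM heterodimer exchanges that fragment for peptide. CIITA, the product of Ciita, binds no DNA itself. It is recruited to class II promoters by the RFX, CREB and NF-Y factors, which sit on elements called the X and Y boxes, and its own gene is switched on by interferon gamma, with IRF1 among the factors that act on it.

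The proximal promoters are shown because the genes are known to share this layout and because H2-Aa and H2-Eb1 rose and H2-DMb2 fell in the tumours. Only windows free of annotated exons are printed, so H2-DMb1, which also rose, and H2-Oa are not shown. The printed windows therefore do not contrast genes that rose with genes that fell, and the part of the promoters in these differences was not tested. RefSeq promoters (GRCm38.p6, 250 bases before to 50 after each start) matched 4 members: H2-Aa, H2-Eb1, H2-DMa and H2-DMb1. The windows below run from 130 to 21 bases before the start, 5′ to 3′ on the strand of the gene. Capitals mark ATTGG (the core of the Y box, a CCAAT box read on its other strand), its longer form CTGATTGG, which contains it, and AGCAAC (a part of many X boxes), each searched on both strands.
H2-Aa, chr17:34287844-34287953, minus strand: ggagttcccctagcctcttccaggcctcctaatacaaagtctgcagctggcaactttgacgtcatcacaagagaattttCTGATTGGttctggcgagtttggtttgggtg
H2-Eb1, chr17:34305737-34305846, plus strand: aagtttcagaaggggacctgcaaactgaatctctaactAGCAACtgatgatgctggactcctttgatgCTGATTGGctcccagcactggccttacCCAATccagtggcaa
H2-DMb2, chr17:34145119-34145228, plus strand: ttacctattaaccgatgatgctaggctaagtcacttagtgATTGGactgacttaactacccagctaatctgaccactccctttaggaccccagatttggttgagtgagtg
H2-Ob, chr17:34238775-34238884, plus strand: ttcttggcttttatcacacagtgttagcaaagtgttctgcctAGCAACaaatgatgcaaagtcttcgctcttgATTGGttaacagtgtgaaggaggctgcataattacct

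Each of the 4 matched members held ATTGG in at least 1 annotated promoter, a sequence found in 37.4% of all 32851 promoters of the same length. CTGATTGG, found in 4.10% of promoters, started at position -51 in H2-Aa and at -62 in H2-Eb1. In H2-DMb1 the ATTGG lay at -61, and in H2-DMa it was found only in the second annotated promoter, at -198. AGCAAC, found in 14.8% of promoters, lay at -92 in H2-Eb1, with 27 bases between it and the ATTGG. Among class II genes outside the 7, H2-Ob had the same pair with 25 bases between, H2-Oa with 28 and H2-Eb2 with 27, and H2-DMb2 had ATTGG at -90. CTGATTGG also started at -46 in H2-Oa, which did not rise in the tumours, and at -103 in H2-Eb2, which was not measured here. The longer form was thus not confined to genes that rose. These matches describe letters in the windows and not binding.

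The H2 genes lie together on chromosome 17 of GRCm38 (GENCODE M21): H2-DMa at 34119541 to 34139101, H2-DMb1 at 34153072 to 34160230, H2-Ab1 at 34257689 to 34269419 and H2-Eb1 at 34305867 to 34316674, all on the plus strand, and H2-Aa at 34282744 to 34287823 on the minus strand. Ciita lies on chromosome 16, at 10480059 to 10528418 on the plus strand. Exons of Brd2 on the other strand cover 10.4% of the exon bases of H2-DMa, and exons of Dexi on the other strand cover 3.45% of those of Ciita. Whether the counting used strand is not given, so reads in these stretches cannot be told apart. H2-DMb1 shares 22.7% of its 50-base stretches with its paralog H2-DMb2, so the values of these 2 genes carry some uncertainty. Those of Cd74, H2-Ab1, H2-Eb1, H2-DMa and Ciita shared none with other genes.

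Total counts were 14240353 to 15515405 in the cell libraries and 19630410 to 32655739 in the tumours. Levels are given as CPM, each count scaled by the total of its library. Mbtps1 was lower under knockdown, at 110 to 130 CPM in control and 41.4 to 57.1 CPM in knockdown tumours (log2 fold change -1.21, SE 0.09, adjusted p = 1.2e-05) and at 118 to 135 and 34.8 to 37.0 CPM in cells (-1.84, SE 0.09, adjusted p = 3.1e-06). Control tumour 1 was the highest control for each of the 7 genes and stood apart from the others in H2-Aa and H2-Eb1, so results in tumours are given with and without it. Ptprc, the pan-leukocyte gene CD45, had 39.5 to 124 CPM in the tumours and is listed at 0 in all 6 cell libraries.

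Class II genes were abundant in the tumours and at or near 0 in the cultured cells. The 7 genes together took 0.282 to 0.703% of all counts in the control tumours and 0.561 to 0.706% in the knockdown tumours. In culture the same genes summed to 3.37 to 3.96 CPM in control and 5.16 to 8.37 CPM in knockdown cells. H2-Aa, H2-Ab1, H2-Eb1 and Ciita are listed at 0 in all 6 cell libraries. The lowest sum above 0 over the cell libraries is 13, so a gene listed at 0 may have had a few reads. In bulk tumours, fewer cells of a type and less RNA per cell cannot be told apart.

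Per kilobase of exon, the order of the levels in control tumours ran from Cd74 (1165 ± 470 CPM per kb, SD, n = 5) through H2-Ab1 (339 ± 130), H2-Eb1 (291 ± 120) and H2-Aa (173 ± 69.4) to H2-DMb1 (42.9 ± 11.8), H2-DMa (21.3 ± 6.64) and Ciita (1.56 ± 0.637). The invariant chain gene thus had the highest level and the regulator gene the lowest. In knockdown tumours the order was Cd74 (1641 ± 200), H2-Eb1 (493 ± 68.3), H2-Ab1 (474 ± 36.7), H2-Aa (323 ± 26.3), H2-DMb1 (61.0 ± 7.79), H2-DMa (28.2 ± 3.38) and Ciita (2.16 ± 0.470). The neighbours H2-Ab1 and H2-Eb1 changed places, and in both groups they differed by less than their SD. In control tumours H2-Eb1 and H2-Aa also differed by less than the SD of H2-Eb1, and the other neighbours differed by more than the SD of the lower gene. In the cultured cells the levels per kb were 1.32 ± 0.123 for H2-DMb1, 0.412 ± 0.0311 for H2-DMa and 0.0679 ± 0.0632 for Cd74 in controls (n = 3).

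**Figure D1:**
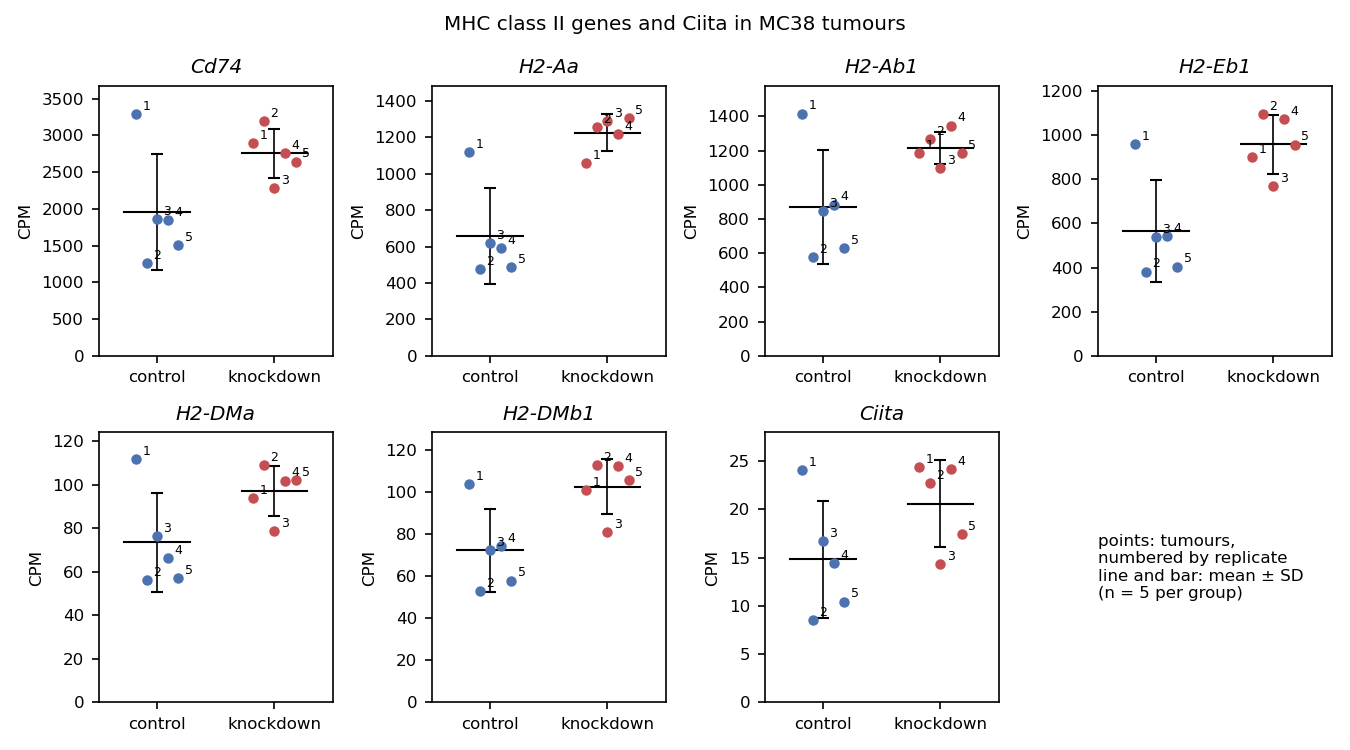
Level of each of the 7 genes in CPM (vertical axis, linear from 0) in 5 control and 5 knockdown tumours; points are tumours numbered by replicate, and the line and bar are the mean and SD. Control tumour 1 is the highest control in all 7 panels and lies at the level of the knockdown tumours.

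The first comparison asked how class II expression differed between knockdown and control tumours. All 7 genes had higher levels in knockdown tumours, by a fitted 1.34-fold to 1.89-fold. With all 10 tumours, 3 of the 7 rose (H2-Aa, H2-Eb1 and H2-DMb1), 0 fell and 4 did not pass the test at an adjusted p of 0.05 (edgeR's quasi-likelihood test, Benjamini-Hochberg over all genes). Of all 13997 genes tested, 20.1% were called higher and 38.4% in either direction. At an unadjusted p under 0.05, 6 of the 7 were higher and 0 lower. The share of all genes higher at this looser cut-off was not taken and cannot be below the 20.1%. The 7 genes were also correlated over the tumours (Pearson's r 0.77 to 0.99), so they are not separate results. DESeq2 and limma voom also called 6 higher and 0 lower, beside 21.7% and 19.7% of all genes called higher. The median log2 fold change of the 7 genes was 0.51, beside 0.02 over all genes tested.

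H2-Aa, the alpha chain of the class II molecule I-A, showed the largest difference of the 7. It had 1116, 476, 618, 592 and 489 CPM in control tumours 1 to 5 and 1057, 1256, 1290, 1216 and 1306 CPM in knockdown tumours 1 to 5. Control tumours 2 to 5 were below all knockdown tumours, and control tumour 1 lay above knockdown tumour 1. The log2 fold change was 0.92 (SE 0.20, adjusted p = 0.0035).

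H2-Ab1, the beta chain that pairs with the product of H2-Aa, had 1417, 580, 846, 884 and 629 CPM in the controls and 1183, 1270, 1099, 1347 and 1187 CPM in the knockdown tumours. Its highest tumour of all 10 was control tumour 1. The log2 fold change of H2-Ab1 was 0.50 (SE 0.19, adjusted p = 0.055), which did not pass. H2-Eb1, the beta chain of I-E, whose alpha chain partner C57BL/6 mice do not express, had 960, 382, 539, 543 and 405 CPM in controls and 901, 1094, 769, 1071 and 958 CPM under knockdown. Again 4 controls lay below all knockdown tumours. H2-Eb1 rose by 0.78 on the log2 scale (SE 0.21, adjusted p = 0.0117).

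Cd74 had 3295, 1265, 1863, 1854 and 1508 CPM in the controls and 2893, 3198, 2283, 2758 and 2645 CPM in the knockdown tumours. Its values followed those of H2-Ab1, with control tumour 1 the highest of the 10 and the other controls below every knockdown tumour. The log2 fold change of Cd74 was 0.51 (SE 0.21, adjusted p = 0.0652), which did not pass.

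H2-DMa and H2-DMb1 encode the chains of the peptide exchanger DM. H2-DMa had 112, 56.4, 76.4, 66.3 and 57 CPM in controls and 94.0, 109, 78.8, 102 and 102 CPM under knockdown (log2 fold change 0.42, SE 0.16, adjusted p = 0.0566, not passed). Control tumour 3 and knockdown tumour 3 lay close together in H2-DMa. H2-DMb1 had 104, 53.0, 72.2, 74.1 and 57.9 CPM in controls and 101, 113, 80.8, 112 and 106 CPM under knockdown, and it rose by 0.52 (SE 0.15, adjusted p = 0.0178). The other-strand neighbour Brd2 had 232 to 278 CPM in control and 210 to 277 CPM in knockdown tumours (-0.17, SE 0.09, adjusted p = 0.129).

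Ciita, the regulator, had 24.0, 8.53, 16.7, 14.5 and 10.5 CPM in the controls and 24.4, 22.7, 14.3, 24.1 and 17.4 CPM in the knockdown tumours. Its groups overlapped more than those of the genes it regulates, with knockdown tumour 3 below control tumours 3 and 4. The log2 fold change of Ciita was 0.49 (SE 0.24, adjusted p = 0.117), which did not pass.

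None of the 7 genes had groups free of overlap, whereas 11.3% of all genes tested had every knockdown tumour above every control. For each of the 7 this involved control tumour 1, the highest control. Without that tumour all 7 rose: Cd74 by 0.78 (SE 0.14), H2-Aa by 1.18 (SE 0.12), H2-Ab1 by 0.74 (SE 0.13), H2-Eb1 by 1.05 (SE 0.14), H2-DMa by 0.61 (SE 0.11), H2-DMb1 by 0.68 (SE 0.12) and Ciita by 0.72 (SE 0.20). The adjusted p-values without it ran from 4.0e-05 for H2-Aa to 0.0164 for Ciita, and 17.8% of all genes were then called higher. Ciita still overlapped, with a highest remaining control at 16.7 CPM and a lowest knockdown tumour at 14.3 CPM. Control tumour 1 was picked for its high values in these genes, so leaving it out had to raise the folds. The p-values without it are therefore no independent test. Leaving out control tumour 2 instead lowered the folds, to 0.39 for Cd74 and 0.35 for Ciita (adjusted p = 0.131 and 0.219), with 3 of the 7 called. Control tumour 1 was also the highest control in the summed macrophage, dendritic cell, T cell, B cell and neutrophil markers given below, whose part in the result was not tested.

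**Figure D2:**
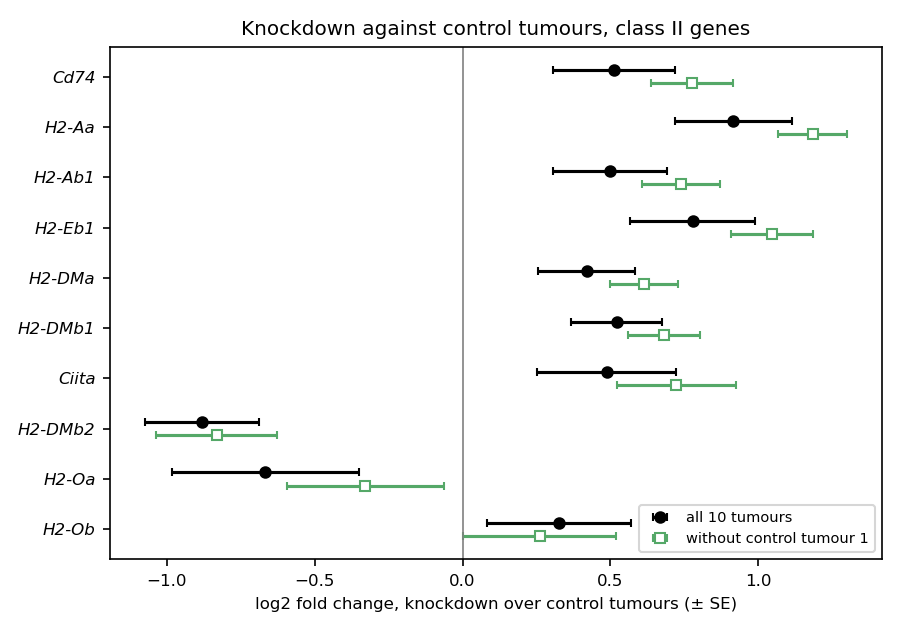
Log2 fold change of knockdown over control tumours with its SE (horizontal axis) for the 7 genes and 3 further class II genes, with all 10 tumours (filled circles) and without control tumour 1 (open squares). The 7 genes lie above 0 in both series, H2-DMb2 and H2-Oa below 0, and leaving out control tumour 1 moves the 7 genes up, H2-Aa from 0.92 to 1.18.

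In the control group the 7 genes moved together from tumour to tumour, and in the knockdown group H2-Aa departed from the others. Control tumour 2 had the lowest control value and control tumour 1 the highest for each of the 7. Knockdown tumour 3 had the lowest knockdown value for every member except H2-Aa, whose lowest was knockdown tumour 1. Relative to the knockdown mean in log2(CPM + 1), knockdown tumour 3 was at 0.08 for H2-Aa, -0.26 for Cd74 and -0.47 for Ciita. Over the 21 pairs of members, Pearson's r of log2(CPM + 1) across the 10 tumours ran from 0.77 to 0.99, and from 0.70 to 0.98 after subtracting the group means. These values are descriptions over 10 libraries that share their group means and their depth. The second range pools both groups, with a wider spread in the controls, and does not show r within the knockdown tumours alone.

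**Figure D3:**
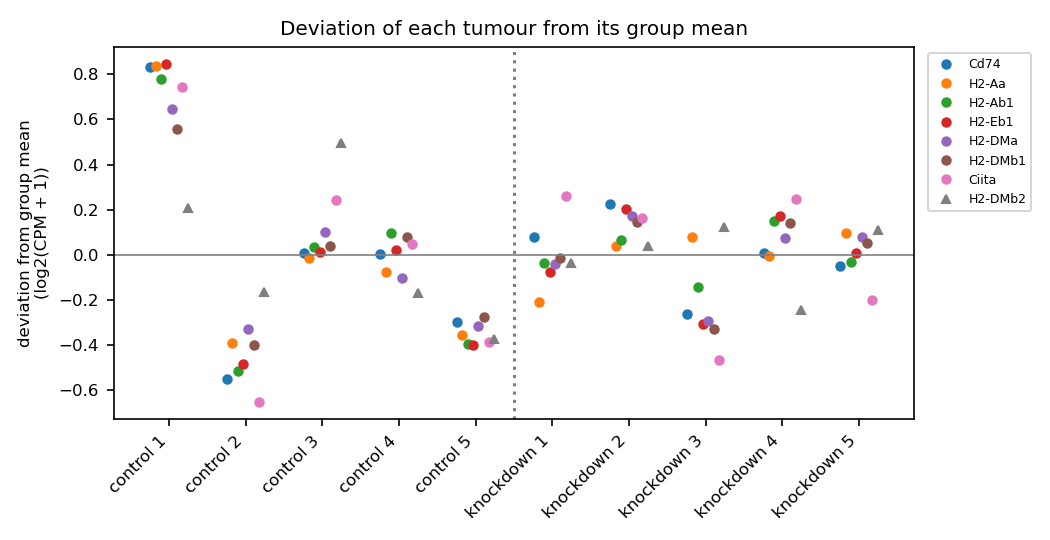
Deviation of each tumour from the mean of its group in log2(CPM + 1) (vertical axis) for the 7 genes (circles) and H2-DMb2 (triangles), by tumour. All 7 genes lie between 0.56 and 0.85 above the group mean in control tumour 1 and below it in control tumours 2 and 5.

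Some ratios between members differed between the groups, without a test because they were chosen after their values were seen. Counts of H2-Aa per count of H2-Ab1 were 0.670 to 0.821 in control and 0.893 to 1.17 in knockdown tumours, with no overlap. Counts of H2-Eb1 per count of H2-Ab1 were 0.614 to 0.678 and 0.700 to 0.862, also with no overlap. In these ratios control tumour 1 lay with the other controls, at 0.788 and 0.678. By contrast, Cd74 per H2-Ab1 overlapped, at 2.10 to 2.40 in control and 2.05 to 2.52 in knockdown tumours, and so did Cd74 per Ciita, at 111 to 148 and 114 to 159. H2-DMb1 per H2-DMa overlapped as well, at 0.927 to 1.12 in control and 1.03 to 1.10 in knockdown tumours. How often the ratio of any other pair of genes is free of overlap was not taken.

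**Figure D4:**
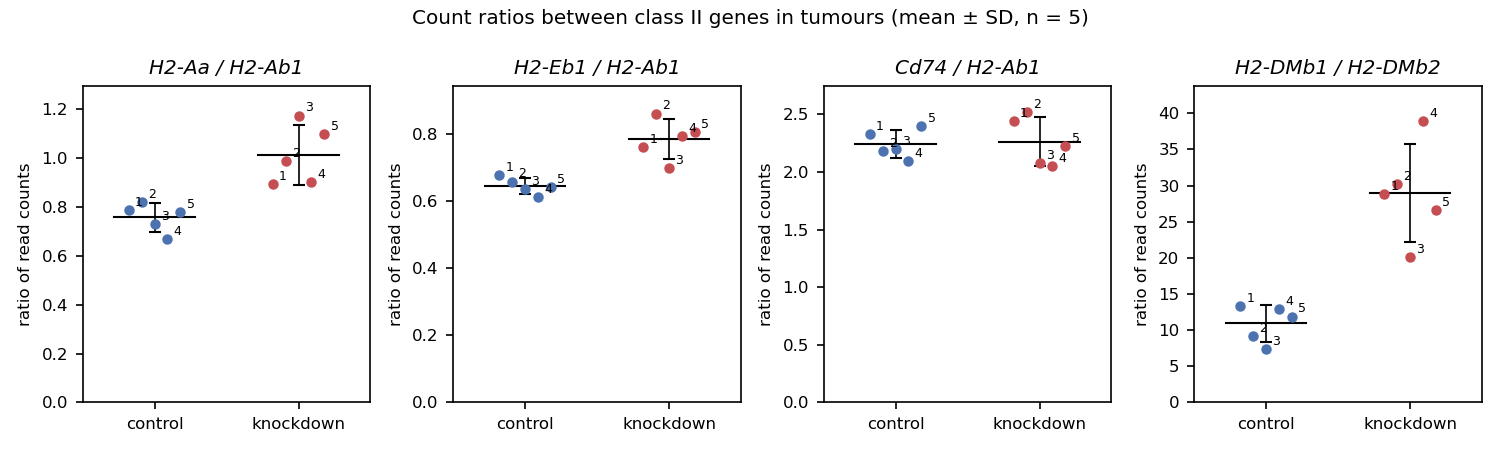
Ratio of read counts between pairs of class II genes (vertical axes, linear from 0) in 5 control and 5 knockdown tumours, numbered by replicate, with mean and SD. The ratios H2-Aa to H2-Ab1, H2-Eb1 to H2-Ab1 and H2-DMb1 to H2-DMb2 do not overlap between the groups, and Cd74 to H2-Ab1 does.

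Among the class II genes outside the 7, H2-DMb2 fell in the knockdown tumours. Of 3 tested, 0 rose, 1 fell and 2 did not pass, with 0 rising also at an unadjusted p under 0.05, with DESeq2 and with limma voom, where 18.3% of all genes were called lower. H2-DMb2, which encodes a further DM beta chain, had 7.79, 5.78, 9.72, 5.76 and 4.87 CPM in controls and 3.49, 3.73, 4.01, 2.89 and 3.97 CPM under knockdown. Its groups did not overlap, as in 11.3% of all genes with the knockdown tumours lower, and it fell by 0.88 on the log2 scale (SE 0.19, adjusted p = 0.0037). The counts of H2-DMb1 per count of H2-DMb2 were 7.43 to 13.3 in control and 20.1 to 39.0 in knockdown tumours. H2-Oa and H2-Ob encode the chains of DO, which inhibits DM. H2-Oa was at 1.38 to 4.26 CPM in control and 1.04 to 1.91 CPM in knockdown tumours (-0.67, SE 0.32, adjusted p = 0.11, and -0.33 without control tumour 1, adjusted p = 0.349). H2-Ob was at 1.51 to 2.84 and 1.56 to 3.52 CPM (0.33, SE 0.24, adjusted p = 0.301).

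The second comparison was the same contrast in cultured cells, where 3 of the 7 genes had counts. Of these, Cd74 and H2-DMa rose and H2-DMb1 did not pass, where 3.76% of all 11905 genes tested were called higher and 9.33% in either direction. Cd74 had 3, 2 and 0 counts in the control cells and 18, 11 and 27 counts in the knockdown cells, or 0.21, 0.132 and 0 CPM against 1.20, 0.737 and 1.74 CPM. Summed per group, 5 counts stood against 56, a ratio of 10.8 at equal depth with a 95% interval of 4.34 to 34.4 that covers counting error only. The fitted log2 fold change of Cd74 was 3.32 (SE 0.68, adjusted p = 0.0135), a value that depends on very few control counts: it was 4.01 without control cells 1, 2.79 without control cells 3 and 2.98 without knockdown cells 3. The lowest tumour, control tumour 2, had 1265 CPM of Cd74, far above the highest of these cell libraries.

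H2-DMa had 22, 21 and 19 counts in control and 42, 45 and 55 counts in knockdown cells, or 1.54, 1.39 and 1.33 against 2.79, 3.01 and 3.54 CPM. The groups did not overlap, as in 31.8% of all genes tested in either direction. It rose by 1.12 (SE 0.27, adjusted p = 0.028), and the ratio of the summed counts was 2.20 (95% interval 1.62 to 3.01). Brd2, whose exons overlap those of H2-DMa on the other strand, was at 310 to 325 CPM in control and 346 to 366 CPM in knockdown cells (0.15, SE 0.08, adjusted p = 0.283), and its part in the H2-DMa counts was not tested. H2-DMb1, its partner chain, had 31, 37 and 29 counts against 66, 21 and 37 (0.29, SE 0.37, adjusted p = 0.665). Knockdown cells 2 lay below all controls and knockdown cells 1 above them.

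With fewer libraries both calls could miss the threshold while the folds stayed in direction. Without control cells 2 neither gene passed (Cd74 3.43, adjusted p = 0.0538, and H2-DMa, adjusted p = 0.0922). H2-DMa also missed it without control cells 1 or 3 or knockdown cells 1 or 3, with adjusted p-values up to 0.1001 (without control cells 1). Its log2 fold change with each library left out was 1.02 to 1.19, beside 1.12 with all 6. Among markers of other cells, Ptprc, the 5 measured T cell genes and the 4 measured neutrophil genes are listed at 0 in all 6 libraries, and 12 macrophage genes summed to 12.8 to 17.9 CPM in control and 14.3 to 15 CPM in knockdown cells, mostly Cd14. The dendritic cell list summed to 429 to 468 CPM in control and 404 to 490 CPM in knockdown cells, most of it Fscn1, and the fibroblast list to 303 to 423 and 303 to 330 CPM, most of it Pdgfra and Dcn. In these lists Bst2 (0.54, SE 0.13, adjusted p = 0.0303) and Col1a2 (1.76, SE 0.35, adjusted p = 0.0114) rose and Pdgfra (-0.39, SE 0.10, adjusted p = 0.0319) fell. Their part in the Cd74 and H2-DMa differences was not tested.

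**Figure D5:**
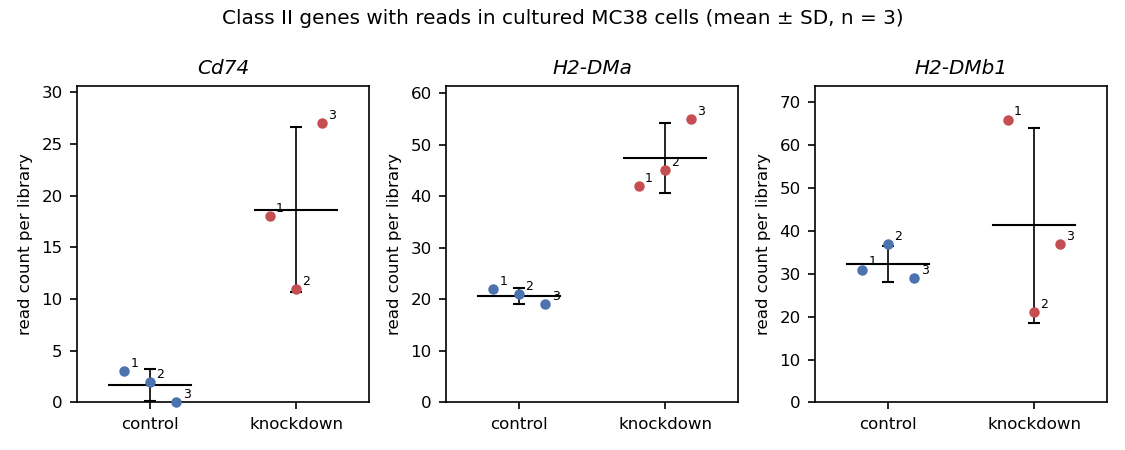
Read counts per library (vertical axes, linear from 0) of the 3 class II genes with counts in cultured MC38 cells, for 3 control and 3 knockdown libraries numbered by replicate, with mean and SD. Knockdown libraries lie above the controls for Cd74 and H2-DMa and on both sides of them for H2-DMb1.

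The third comparison tested whether the knockdown effect differed between tumours and cells, for the 3 genes with counts in both. The log2 fold change of Cd74 was lower in tumours than in cells (difference -2.81, SE 0.90, adjusted p = 0.0329), where 9.95% of 12581 genes were called lower and 22.7% in either direction. This call rests on the few control counts of Cd74 in cells. It was lost without control cells 2 or 3 or knockdown cells 1 or 3, and with limma voom. The difference ran from -3.51 to -2.28 with each library left out. The differences for H2-DMa (-0.68, SE 0.36, adjusted p = 0.180) and H2-DMb1 (0.26, SE 0.41, adjusted p = 0.690) did not pass. The tumour libraries also hold RNA of host cells, which carry a normal Mbtps1 gene, in a share not measured here. For all 3 genes, a different knockdown effect and a different mixture of cells cannot be told apart.

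Genes that act with the 7 were read from lists of names, drawn up with earlier results of these data known. The shares of all genes called in tumours, to set beside each count, were 20.1% higher, 18.3% lower and 38.4% in either direction, with a median of 0.02. Upstream of Ciita, 4 of 13 genes rose in the tumours, 0 fell and 9 did not pass (median 0.19), with 2 lower at an unadjusted p under 0.05, 1 lower with DESeq2 and 0 with limma voom. Ifng, the inducer, had 1.92, 1.24, 1.70, 1.43 and 1.31 CPM in controls and 4.95, 5.93, 5.30, 3.55 and 6.17 CPM in knockdown tumours (1.79, SE 0.20, adjusted p = 8.0e-05). In Ifng control tumour 1 lay below every knockdown tumour, unlike in the class II genes. Irf1 (0.25, SE 0.09), whose product acts on the Ciita promoter, and the feedback inhibitor gene Socs3 (0.50, SE 0.13) were among those that rose, and Socs1 was at 0.17 (SE 0.13, adjusted p = 0.331). In cells 1 of 10 rose, beside 3.76% of all genes: Socs1, from 12 to 14.3 up to 24.2 to 39.9 CPM (1.17, SE 0.18, adjusted p = 0.0026), and Ifng is listed at 0. With DESeq2 2 of the 10 rose in cells and with limma voom 1, beside 663 and 404 of all genes tested. Irf1 was at 0.33 in cells (SE 0.11, adjusted p = 0.0946), which did not pass.

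Of the 7 enhanceosome genes, which encode RFX, NF-Y and CREB subunits that recruit CIITA, 1 rose, 1 fell and 5 did not pass in the tumours (median -0.016). Creb1 rose by 0.40 (SE 0.08, adjusted p = 0.0024) and Rfxank, an RFX subunit, fell by 0.31 (adjusted p = 0.0304). Rfx5 was at 0.31 (adjusted p = 0.0827), Rfxap at -0.15, Nfya at -0.18, Nfyb at 0.16 and Nfyc at -0.02. In cells 0 of the 7 passed with edgeR or limma voom, 1 was higher and 1 lower at an unadjusted p under 0.05, and 1 was lower with DESeq2.

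Among 8 processing genes, 3 rose, 2 fell and 3 did not pass (median 0.13), where 38.4% of all genes were called in either direction. Ctss, the cathepsin that makes the last cut of the invariant chain in many antigen-presenting cells, had 774, 579, 682, 619 and 547 CPM in controls and 860, 945, 860, 1125 and 1156 CPM under knockdown, without overlap (0.64, SE 0.11, adjusted p = 0.0012). Ifi30, the endosomal thiol reductase (0.43, SE 0.12), and Ctsl (0.36, SE 0.13) also rose. The aspartic protease gene Ctsd (-0.49, SE 0.17) and Ctsz (-0.25, SE 0.08) fell. The turnover and silencing list had 2 of 7 genes up and 2 down (median 0.030). Those up were Marchf1, the ubiquitin ligase that removes class II from the surface of antigen-presenting cells (0.62, SE 0.20, adjusted p = 0.0281), and Il10 (1.91, SE 0.31), and those down were Marchf8 (-0.51, SE 0.11) and Tgfb1 (-0.53, SE 0.10).

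Of 6 genes tied to recognition by CD4 T cells, 3 rose, 0 fell and 3 did not pass (median 0.23), where 20.1% of all genes were called higher. Lag3, an inhibitory receptor that binds class II, went from 10.5 to 19.9 CPM in controls to 18.6 to 21.6 CPM (0.52, SE 0.14, adjusted p = 0.0116), and Cd3e (0.89, SE 0.24) and Tbx21 (0.87, SE 0.27) rose. Cd4 itself, the co-receptor for class II, was at 1.87 to 6.96 CPM in control and 2.02 to 3.77 CPM in knockdown tumours (-0.55, SE 0.30, adjusted p = 0.157). Foxp3 (-0.31, adjusted p = 0.412) and Il2ra (-0.05, adjusted p = 0.807) did not pass either. Cd3e is not particular to CD4 T cells, and Cd8a, a gene of CD8 T cells outside this list, rose by 1.27 (SE 0.17, adjusted p = 2.7e-04). Of 6 genes in the costimulation list, 4 rose, 0 fell and 2 did not pass (median 0.71). Cd80 (0.85, SE 0.23) and Cd86 (0.58, SE 0.11) rose. So did Cd274 (0.85, SE 0.12) and Pdcd1lg2 (0.91, SE 0.25), which encode inhibitory ligands and not costimulators. Cd40 (0.28, adjusted p = 0.232) and Icosl (-0.26, adjusted p = 0.146) did not pass. For both lists the counts falling were also 0 at an unadjusted p under 0.05, with DESeq2 and with limma voom.

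The class I pathway, which displays peptides to CD8 T cells, had 2 of 9 genes higher, beside 20.1% of all genes, 0 lower and 7 not passed (median 0.15, beside 0.02 over all genes), with 0 lower also at an unadjusted p under 0.05, with DESeq2 and with limma voom. Nlrc5, the class I counterpart of Ciita, had 148, 113, 118, 129 and 116 CPM in controls and 186, 195, 259, 191 and 248 CPM under knockdown (0.81, SE 0.12, adjusted p = 4.5e-04). Its groups did not overlap. B2m, the light chain of class I, rose by 0.59 (SE 0.14). In cells Nlrc5 was at 18 to 22 CPM in control and 18.5 to 23.2 CPM in knockdown libraries. There 2 of the 9 class I genes rose, Tap2 (0.59, SE 0.17) and Psmb8 (0.67, SE 0.15), beside 3.76% of all genes called higher. Tapbp was at -0.55 (SE 0.17, adjusted p = 0.0672). In cells 1 class I gene was lower at an unadjusted p under 0.05, 1 with DESeq2 and 0 with limma voom. Elsewhere in the pathway lists, Ctsd (0.40, SE 0.10), 1 of 7 processing genes tested, rose in cells, beside the same 3.76%. The inhibitory ligand gene Cd274 (0.69, SE 0.15), 1 of 2 genes tested of the costimulation list, also rose there.

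Markers of the cells that can carry class II were read beside these results. The sum of 12 macrophage genes ran from 2869 to 5229 CPM in control and from 3056 to 5070 CPM in knockdown tumours, with 4 genes higher, 0 lower and 8 not passed (0 lower also at an unadjusted p under 0.05, with DESeq2 and with limma voom). The class II sum per macrophage sum was 0.949 to 1.34 in control and 1.24 to 1.84 in knockdown tumours, an overlap that only control tumour 1 made. Dendritic cell markers had 4 genes higher and 2 lower of 10 tested. Xcr1 (1.70, SE 0.23), Clec9a (0.95, SE 0.12) and Batf3 (0.82, SE 0.20), of the cross-presenting type, and Cd7 (1.15, SE 0.34) rose. Ccr7 (-0.77, SE 0.25) and Fscn1 (-0.82, SE 0.11), of migrating cells, fell, and the summed list, which Fscn1 and Bst2 dominate, was at 973 to 1170 CPM in control and 833 to 960 CPM in knockdown tumours. Clec9a, Batf3, Zbtb46, Fscn1 and Bst2 were among the list's genes that also had counts in the cultured cells.

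The B cell markers summed to 5.05 to 9.30 CPM in control and 6.06 to 11.9 CPM in knockdown tumours, most of it Cd79b, with Cr2 listed at 0. The 5 T cell genes summed to 25.5 to 61.9 and 68.9 to 90.1 CPM. Of these, 4 were higher, 0 lower and 1 (Cd4) not passed, where 20.1% of all genes were called higher. Ptprc was at 39.5 to 59.6 and 76.6 to 124 CPM (1.06, SE 0.14, adjusted p = 2.5e-04). Class II counts per Ptprc count were 67.6 to 118 in control and 51.4 to 74.6 in knockdown tumours. The neutrophil sum was 16.1 to 26.8 and 22.6 to 36.4 CPM, with 1 gene higher (Csf3r, 0.74, SE 0.17), 1 lower (S100a9, -1.28, SE 0.48, adjusted p = 0.0492) and S100a8 not passed at -1.01 (adjusted p = 0.108). The fibroblast sum was 841 to 1096 CPM in control and 736 to 819 CPM in knockdown tumours, the endothelial sum 89.2 to 131 and 60.5 to 112 CPM, and the epithelial sum 3.72 to 6.40 and 3.15 to 7.07 CPM. Without control tumour 1, Cd79b (0.63, adjusted p = 0.0291), the macrophage genes C1qa (0.47, adjusted p = 0.0244) and Fcgr1 (0.41, adjusted p = 0.0202), Spi1 (0.35, adjusted p = 0.0335) and Tap1 (0.29, adjusted p = 0.0354) also rose. Ctsd (-0.46, adjusted p = 0.0667), Ctsl (0.30, adjusted p = 0.0869) and Ccr7 (-0.68, adjusted p = 0.0614) then did not pass. The part of these cell types in the class II differences was not tested.

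Among the 10 genes whose pattern over the 10 tumours was most like the 7, by Pearson's r with the mean of their standardised values, were Themis2 (0.98), Cd7 (0.98), C4b (0.98), Zap70 (0.97), Aoah (0.97), Hvcn1 (0.97), Irag2 (0.97), Gimap7 (0.96) and Lag3 (0.96), of 13178 genes ranked. Aoah, which encodes an enzyme that inactivates bacterial lipopolysaccharide, had 21.9 ± 6.92 CPM in control and 36.7 ± 3.82 CPM in knockdown tumours (SD, n = 5). Of the genes named here, all but Hvcn1 and Lag3 are listed at 0 in the cultured cells. The regulator Ciita had an r of 0.94 with the set it is part of, Ifng 0.75, Ptprc 0.85 and H2-DMb2 -0.40. Of the cell type markers looked at, the macrophage gene C1qc had 0.96, the dendritic cell genes Xcr1 0.86, Itgax 0.79 and Clec9a 0.72, the B cell gene Cd79b 0.85 and the macrophage receptor gene Csf1r 0.28. After the group means were subtracted, C1qc was at 0.92, Xcr1 at 0.79, Itgax at 0.66, Clec9a at 0.26, Cd79b at 0.80 and Csf1r at 0.84, H2-Oa moved from 0.20 to 0.84 and Ifng from 0.75 to 0.43.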

How the data were processed

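RNA libraries were made from MC38 cells and tumours after Trizol extraction and mRNA capture, per the labels' protocols. The authors deposited whole-number read counts per gene symbol, not normalised. Tools listed, without a role, in the submitters' processing notes are STAR 2.7.1a, HTSeq 0.13.5, cutadapt 1.18, FastQC 0.11.9, Cufflinks 0.17.3 and SAMtools 1.3.1, with the human build hg38, although the table carries mouse symbols; the build used and the strand setting are not given in the sources used here. Groups came from the titles, and 0 value columns lacked a sample. The lowest sum above 0 was 13 over the cell and 15 over the tumour libraries.

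Each contrast was fitted over the whole table with edgeR 4.0.16 in R 4.3.3 (TMM, filterByExpr, robust quasi-likelihood test, two-sided, Benjamini-Hochberg, threshold 0.05) on its own libraries. The interaction used all 16 libraries. The SE is the log2 fold change over the root of F. Alternatives used DESeq2 1.42.0, limma 3.58.1 (voom), library totals, other filters, the replicate block, 1 joint fit and each replicate left out. The fit was tested on simulated data. The members, lists and rule for named genes were chosen with earlier results of these data known: all 7 members, Mbtps1, Ifng, Irf1, Nlrc5, Socs1 and the RFX and NF-Y genes, up to 4 genes of each list by p in tumours, and the 10 most alike genes; others named were chosen after their values were seen. A few results under this rule are not reported here. Replicates differed by more than counting noise (chi-square per degree of freedom at least 5.87). The common biological coefficient of variation was 0.159 in tumours and 0.116 in cells.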

Additional observations from a re-analysis of the deposited data

Results flagged for a closer look

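In H2-Aa, control tumour 1 stood apart from the other 4 controls at 1116 CPM, with a gap to the next of 0.778 of the group's range. In H2-Eb1 the same tumour stood apart at 960 CPM, with a gap of 0.722 of the range, above the critical value of 0.710 for 5 samples. These were 2 of 20 groups checked, and chance alone marks about 1 in 20. The log2 fold change of Cd74 differed between tumours and cells by -2.81 (SE 0.90, adjusted p = 0.0329), from 0.51 in tumours and 3.32 in cells, the latter resting on 5 counts over the 3 control libraries. Tumour values also hold RNA of host cells, so these fold changes may not describe the same cells.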

How the results depend on the processing

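In tumours, 3 of the 7 genes were called; 6 were with DESeq2, 6 with limma voom, 5 with the replicate number as a block, 5 with all 16 libraries in 1 fit, and 3 to 7 with each replicate left out, 7 without control tumour 1. Over all genes, 5377 were called, and 4069 to 5833 with each replicate left out. In cells, 2 were called; 1 was with the stricter filter, which removed Cd74, 1 with the replicate block (H2-DMa, at 1.12, then had an adjusted p of 0.0751) and 0 to 2 with each replicate left out, and all genes called went from 1111 to 508 with the block and to 290 to 1530 (290 without control cells 1, 466 without control cells 2 and 330 without knockdown cells 1). H2-DMb1 in cells ran from -0.23 (without knockdown cells 1) to 0.59 with each replicate left out. For the difference between tumours and cells, 1 was called, 0 with limma voom and 0 to 1 with each replicate left out, and all genes called went from 2850 to 1667 to 3359 (1855 without control cells 3, 1667 without knockdown cells 3). The difference for H2-DMb1 ran from -0.042 (without knockdown cells 2) to 0.77. Of the 10 most alike genes, 6 stayed among the first 10 with group means subtracted. The causes were not tested. Same-numbered samples shared no deviation (r -0.31 to 0.21 in tumours, -0.27 to 0.035 in cells), not every sample correlated best with its own number, and so the numbers were not taken as pairs. All other single-gene values kept direction: 296 of the single-gene alternatives also kept their side of the threshold, 15 gained and 12 lost it. Depth limits the cells, where 4 of the 7 genes are listed at 0.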

Other observations

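The series also holds a pooled CRISPR screen with 1 library of MC38 cells recovered from C57BL/6 mice and 1 from B6-Rag1-KO mice, which lack mature T and B cells. Of the 7 genes, only H2-Ab1 had guides, 4 in number, with 494 to 2105 reads in the C57BL/6 and 295 to 1891 reads in the Rag1-KO library. Their log2 ratio of C57BL/6 over Rag1-KO ran from -0.54 to 0.42, with a median of -0.06. Over 18108 guides with at least 20 reads the median was 0.12 and the 5th to 95th percentiles were -1.47 to 1.55. With 1 library per genotype there is no replicate check and no test was made.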
